A study of Mus musculus with 8 samples.

Results

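The retinoic acid pathway genes described here are 10 genes picked by name: the retinoic acid receptor genes Rara, Rarb and Rarg, the retinoid X receptor genes Rxra, Rxrb and Rxrg, and the response genes Stra6, Stra8, Cyp26a1 and Cyp26b1. All 10 were found among the 21883 protein-coding genes of the RefSeq annotation of assembly GRCm38.p6, which is mm10 under another name. For each gene, the bases of its span under peaks of H3K79me2 were counted in cultured mouse spermatogonial stem cells without and with EPZ5676 (also called pinometostat), an inhibitor of DOT1L. H3K79me2 is the dimethylated form of lysine 79 of histone H3, and DOT1L is the enzyme that makes it.

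The cells came from testes of B6.129S7-Gt(ROSA)26Sor/J mice aged 7 days, a strain with a LacZ reporter in all tissues, so control and treated cells alike carried it. Before treatment they spent 2 months in culture over a layer of mouse fibroblasts (SNL 76/7 feeders) with GDNF at 10 ng/mL and FGF2 at 0.5 ng/mL, and then received 2 µM EPZ5676 or vehicle for 7 days. The protocols call the vehicle DMSO, whereas the short sample names of the controls read EtOH. The 8 samples form 4 groups of 2, H3K79me2 and input for each condition, but the lists analysed are 1 for the control and 1 for EPZ5676. There is therefore no replicate error on any value below and no test between conditions, and read depth is unknown.

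Retinoic acid, made from vitamin A, enters the nucleus and binds RARs, which sit on DNA as heterodimers with RXRs. In the mouse testis it drives undifferentiated spermatogonia to differentiate, and it switches on Stra8, which is needed for the entry into meiosis. CYP26 enzymes break retinoic acid down, and several target genes, Rarb and Cyp26a1 among them, are themselves induced by it. H3K79me2 is known as a mark of the bodies of transcribed genes, densest after the start of transcription.

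The control list held 47774 peaks with a median width of 1102 bp, and the EPZ5676 list 9182 peaks with a median width of 402 bp. The marker counts are to be read against shares of 52.7% (control) and 12.3% (EPZ5676) over the whole gene table. Of 10 marker genes of undifferentiated spermatogonia, all 10 had a control peak (365441 bp in sum, the longest at Zbtb16) and 0 had an EPZ5676 peak. Of 12 fibroblast markers, 8 had a control peak (49535 bp) and 4 an EPZ5676 peak (8872 bp), while Col1a2, Col3a1, Vim and S100a4 had none in either list. Of 10 markers of testis somatic cells, 4 had a control peak (14463 bp) and only Fshr an EPZ5676 peak (179 bp).

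Promoter sequences, from 250 bases before to 50 after a listed RefSeq start in GRCm38.p6, were found for all 10 genes, with 20 starts in all. Of these, 5 are shown, for the reasons given next. Rarb and Cyp26a1 carry the DR5 element, the direct repeat by which RAR and RXR heterodimers are known to bind. Neither had a control peak at its start, and only 10.0% of all such windows were touched by one. In both sequences capitals mark the repeated hexamers, which lie opposite to the gene's strand in Cyp26a1. At Stra8 the control peak begins inside the window, and capitals mark the bases within it. The upstream and the internal start of Rxra are set side by side, with each CG dinucleotide in capitals, because the internal start lies within a peak of both lists.
Rarb, chr14:16575427-16575726, minus strand: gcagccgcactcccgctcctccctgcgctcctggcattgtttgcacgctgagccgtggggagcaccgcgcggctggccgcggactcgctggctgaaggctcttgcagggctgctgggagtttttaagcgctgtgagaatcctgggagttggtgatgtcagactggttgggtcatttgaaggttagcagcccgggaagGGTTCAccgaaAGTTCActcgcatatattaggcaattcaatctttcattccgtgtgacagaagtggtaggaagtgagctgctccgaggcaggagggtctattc
Cyp26a1, chr19:37697558-37697857, plus strand: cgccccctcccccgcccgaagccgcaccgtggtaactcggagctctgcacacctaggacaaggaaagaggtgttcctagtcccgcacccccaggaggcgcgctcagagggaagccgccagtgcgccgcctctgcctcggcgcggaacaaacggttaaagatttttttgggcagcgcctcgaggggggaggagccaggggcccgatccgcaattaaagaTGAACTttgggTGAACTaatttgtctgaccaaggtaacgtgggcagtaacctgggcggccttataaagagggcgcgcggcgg
Stra8, chr6:34920698-34920997, plus strand: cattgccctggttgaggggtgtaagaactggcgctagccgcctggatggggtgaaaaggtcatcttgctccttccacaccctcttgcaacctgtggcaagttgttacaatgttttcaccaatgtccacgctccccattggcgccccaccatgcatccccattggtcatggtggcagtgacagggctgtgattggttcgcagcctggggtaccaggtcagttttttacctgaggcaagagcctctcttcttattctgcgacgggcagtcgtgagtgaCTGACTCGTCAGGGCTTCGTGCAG
Rxra, upstream start, chr2:27676951-27677250, plus strand: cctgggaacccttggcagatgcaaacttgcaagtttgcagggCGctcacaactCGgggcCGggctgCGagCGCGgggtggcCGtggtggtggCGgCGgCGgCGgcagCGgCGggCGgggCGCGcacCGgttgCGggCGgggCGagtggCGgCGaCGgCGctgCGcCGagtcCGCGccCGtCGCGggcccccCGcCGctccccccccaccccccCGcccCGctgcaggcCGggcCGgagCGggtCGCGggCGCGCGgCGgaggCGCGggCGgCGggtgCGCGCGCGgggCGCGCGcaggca
Rxra, internal start, chr2:27709042-27709341, plus strand: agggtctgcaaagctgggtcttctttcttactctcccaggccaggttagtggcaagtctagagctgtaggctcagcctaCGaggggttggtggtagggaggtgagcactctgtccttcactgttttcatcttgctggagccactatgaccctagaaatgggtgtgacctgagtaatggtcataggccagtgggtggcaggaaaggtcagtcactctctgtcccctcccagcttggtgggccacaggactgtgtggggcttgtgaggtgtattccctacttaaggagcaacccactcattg

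Of the 10 genes, 5 had a control peak over the span and 3 had an EPZ5676 peak. By the rule used here, 1 bp of overlap with a peak makes a gene marked, and on it 52.7% of all protein-coding genes were marked in the control and 12.3% after EPZ5676. The control-marked genes were Rara, Rarg, Rxra, Rxrb and Stra8. Rxra and Rara kept an EPZ5676 peak, or 2 of 5 control-marked genes, where 19.3% of all control-marked genes did. The other 3 had control peaks only, as did 42.5% of all genes. Rarb had EPZ5676 peaks only, as did 2.14% of all genes, and Rxrg, Stra6, Cyp26a1 and Cyp26b1 had no peak in either list, as did 45.2%. The shares of the 10 genes thus lay near the background in the control, and with so few genes the shares after EPZ5676 cannot be read more closely.

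Summed over the 10 genes, control peaks covered 126606 bp and EPZ5676 peaks 11967 bp. Rxra alone supplied 50.8% of the control bases and 90.9% of the EPZ5676 bases. There were 12 control peaks over the 10 spans, of which 2 overlapped an EPZ5676 peak by at least 1 bp (6.48% of all control peaks did). Of the 15 EPZ5676 peaks, 13 overlapped a control peak (55.8% of all EPZ5676 peaks did), and the other 2 were those of Rarb.

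**Figure D1:**
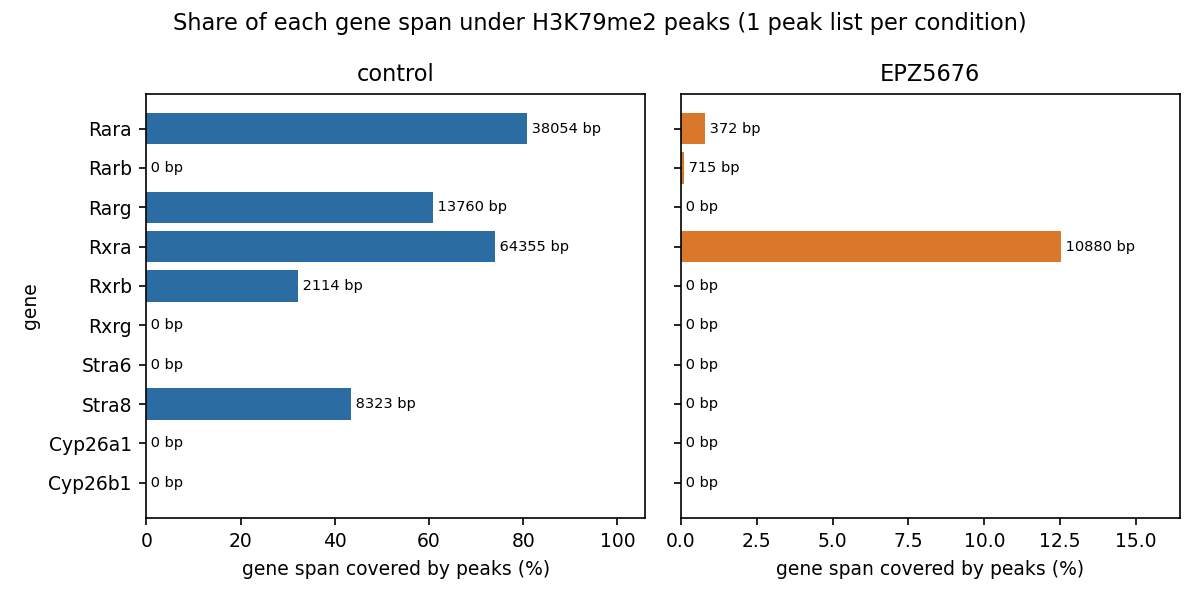
Percent of each gene span covered by peaks in the control list (left) and the EPZ5676 list (right, on its own scale), 1 bar per gene with the covered bases beside it. Rara and Rxra have the largest shares in the control, and after EPZ5676 Rxra stands at 12.5% with the others below 1%.

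Among the retinoic acid receptors, Rara and Rarg were covered over most of their spans in the control, and Rarb was not covered at all. Rara encodes RARα (chromosome 11, 98927800 to 98974942, plus strand). Its 5 control peaks covered 38054 bp, or 80.7% of the span, more than in 92.6% of control-marked genes. The widest ran 29415 bp (98938189 to 98967603), with a fold enrichment over background of 4.82 in the authors' deposited list, as are all fold values below. After EPZ5676, Rara had 1 peak of 372 bp (98946015 to 98946386, fold 2.63), wholly inside that domain and covering 1.26% of it. Its −log10 q of 1.21 was low within a list whose lowest value is 1.04 and whose median is 1.43. The span of Rara contains Gm46294, another predicted protein-coding gene, so 4236 bp of the control coverage belong to both.

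Rarg encodes RARγ, known in the mouse as the main RAR of spermatogonia (chromosome 15, 102234938 to 102257522, minus strand). Its 3 control peaks covered 13760 bp, or 60.9% of the span, and it had no EPZ5676 peak. The first, of 8944 bp (102251577 to 102260520), lay across the upstream start and ran past the end of the span. The most enriched, of 6288 bp (102240568 to 102246855, fold 4.83), held the internal start. Rarg therefore had a domain at each of its listed starts, with a smaller peak of 1526 bp between them.

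Rarb encodes RARβ, itself a target of retinoic acid, and has by far the longest span of the 10 genes (651493 bp, chromosome 14, 16430839 to 17082331, minus strand). The control list had no peak anywhere over it. The EPZ5676 list had 2, of 430 bp (16551534 to 16551963, fold 2.74) and 285 bp (16565851 to 16566135, fold 2.66), which together covered 0.110% of the span. The only listed start lies 506855 bp from the upstream edge of the span. Both peaks lay downstream of that start, at 23513 and 9341 bp from it. Their −log10 q, 1.36 and 1.21, lay below the median of 1.43 in the EPZ5676 list. Over the whole span the rate was 3.07 EPZ5676 peaks per Mb, beside 6.75 per Mb over all autosomal protein-coding spans. Most of the span lies upstream of the listed start and held neither peak. The rate downstream of that start alone was therefore higher, and it was not set against a background. Among genes with spans over 200 kb, 17.1% had EPZ5676 peaks only.

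Of the retinoid X receptors, the partners of the RARs, Rxra carried the widest domain and 12 of the 15 EPZ5676 peaks of the 10 genes. Rxra encodes RXRα (chromosome 2, 27676445 to 27763319, plus strand) and overlaps no other protein-coding gene. A single control peak of 62034 bp (27677790 to 27739823, fold 5.26) began 589 bp after the upstream start, and it ranked 121st by width among all control peaks. With a second peak of 2321 bp, the control covered 64355 bp, or 74.1% of the span. The last 20435 bp of the span had no control peak. Of all genes with spans of 50 to 200 kb, 70.9% had a control peak, and an EPZ5676 peak lay on 38.6% of the genes so marked.

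After EPZ5676, Rxra had 12 peaks over 10880 bp, or 12.5% of the span, all of them inside the 62034 bp domain. They were 159 to 2996 bp wide, with folds of 2.61 to 3.10 against a median of 2.75 in the whole list. Of the 12 peaks, 4 were at least 1000 bp wide and held 7301 bp. The widest (27695230 to 27698225) ranked 36th in the EPZ5676 list. The peaks were denser toward the upstream end, where 7 began within the first 20 kb and held 68.9% of the EPZ5676 bases. Between neighbouring peaks lay 859 to 8878 bp, and the last 32484 bp of the span had none.

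Rxra ranked 444th of 21883 genes by control coverage and 21st by EPZ5676 coverage. EPZ5676 peaks covered 17.5% of its domain, and of the 1582 control peaks over 20 kb only 13 had a larger share covered. Over the 829 of those wide peaks with any EPZ5676 peak, the median share was 3.32%. Per gene, EPZ5676 coverage was 16.9% of control coverage at Rxra and 0.978% at Rara, against a median of 4.16% over the 2227 genes with both. Rxra lay above 85.3% of those genes and Rara above 11.5%. The EPZ5676 peaks of Rxra had a median fold of 2.82 against 2.75 for the whole list. Singly, their folds exceeded those of 5.61% to 96.2% of that list, and the fold of the Rara peak exceeded 7.88%. With −log10 q of at least 2 in both lists, which leaves 648 EPZ5676 peaks, Rxra kept 1 peak of 159 bp and Rara and Rarb had none. As given above, EPZ5676 peaks also lay on 4 of 12 fibroblast markers, 0 of 10 spermatogonial markers and 1 of 10 testis somatic markers. Over all genes the share was 12.3%. The part of feeder chromatin in the Rxra peaks was not tested.

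**Figure D2:**
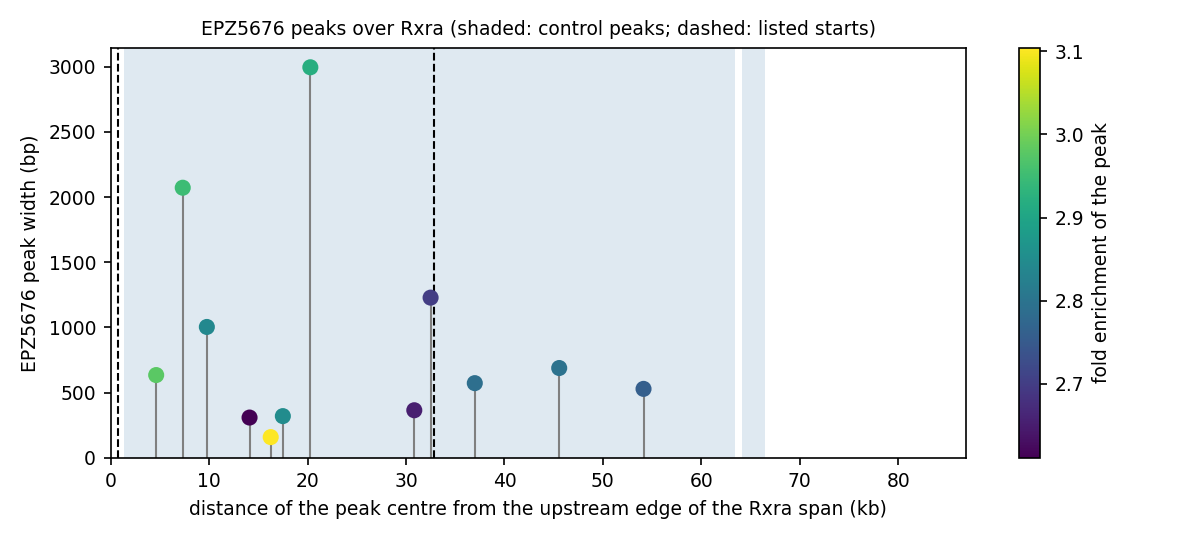
Width in bp of each EPZ5676 peak over Rxra against the distance of its centre from the upstream edge of the span in kb, coloured by fold enrichment. Shading marks control peaks and dashed lines the listed starts; all 12 peaks lie in the shaded domain, and the widest, of 2996 bp, lies near 20 kb.

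Rxrb and Rxrg differed from Rxra in the control. Rxrb encodes RXRβ in a short span of 6592 bp (chromosome 17, 34031812 to 34038403, plus strand). It had 1 control peak of 2114 bp (34032417 to 34034530, fold 3.45), 32.1% of the span, and no EPZ5676 peak. Only 1.97% of control-marked genes with spans under 10 kb had an EPZ5676 peak, so its lack is the common case. Rxrg, the gene of RXRγ, a receptor best known from muscle and brain (chromosome 1, 167598362 to 167639623), had no peak in either list, and none lay within 20000 bp of it.

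Among the response genes, only Stra8 was marked. Stra8 encodes a factor that germ cells need to enter meiosis (chromosome 6, 34920163 to 34939344, plus strand). It had 1 control peak of 8323 bp (34920974 to 34929296), 43.4% of the span, that began 26 bp after the listed start. Its fold of 2.73 exceeded that of 78.9% of control peaks but was the lowest among the top peaks of the 5 marked genes. There was no EPZ5676 peak over Stra8. Control peaks lay on 61.8% of genes with spans of 10 to 50 kb.

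Stra6, the gene of the membrane receptor that takes up retinol from its plasma carrier (chromosome 9, 58063793 to 58154004), had no peak in either list, nor did Ccdc33, which overlaps it. Cyp26a1 (chromosome 19, 37697738 to 37701536) and Cyp26b1 (chromosome 6, 84571414 to 84593908), the genes of retinoic acid hydroxylases, had none either. In the mouse testis, CYP26B1 is known from somatic cells, where it shields fetal germ cells from retinoic acid. Cyp26c1, the third gene of the family, lies 4417 bp upstream of Cyp26a1 and was also without a peak.

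**Figure D3:**
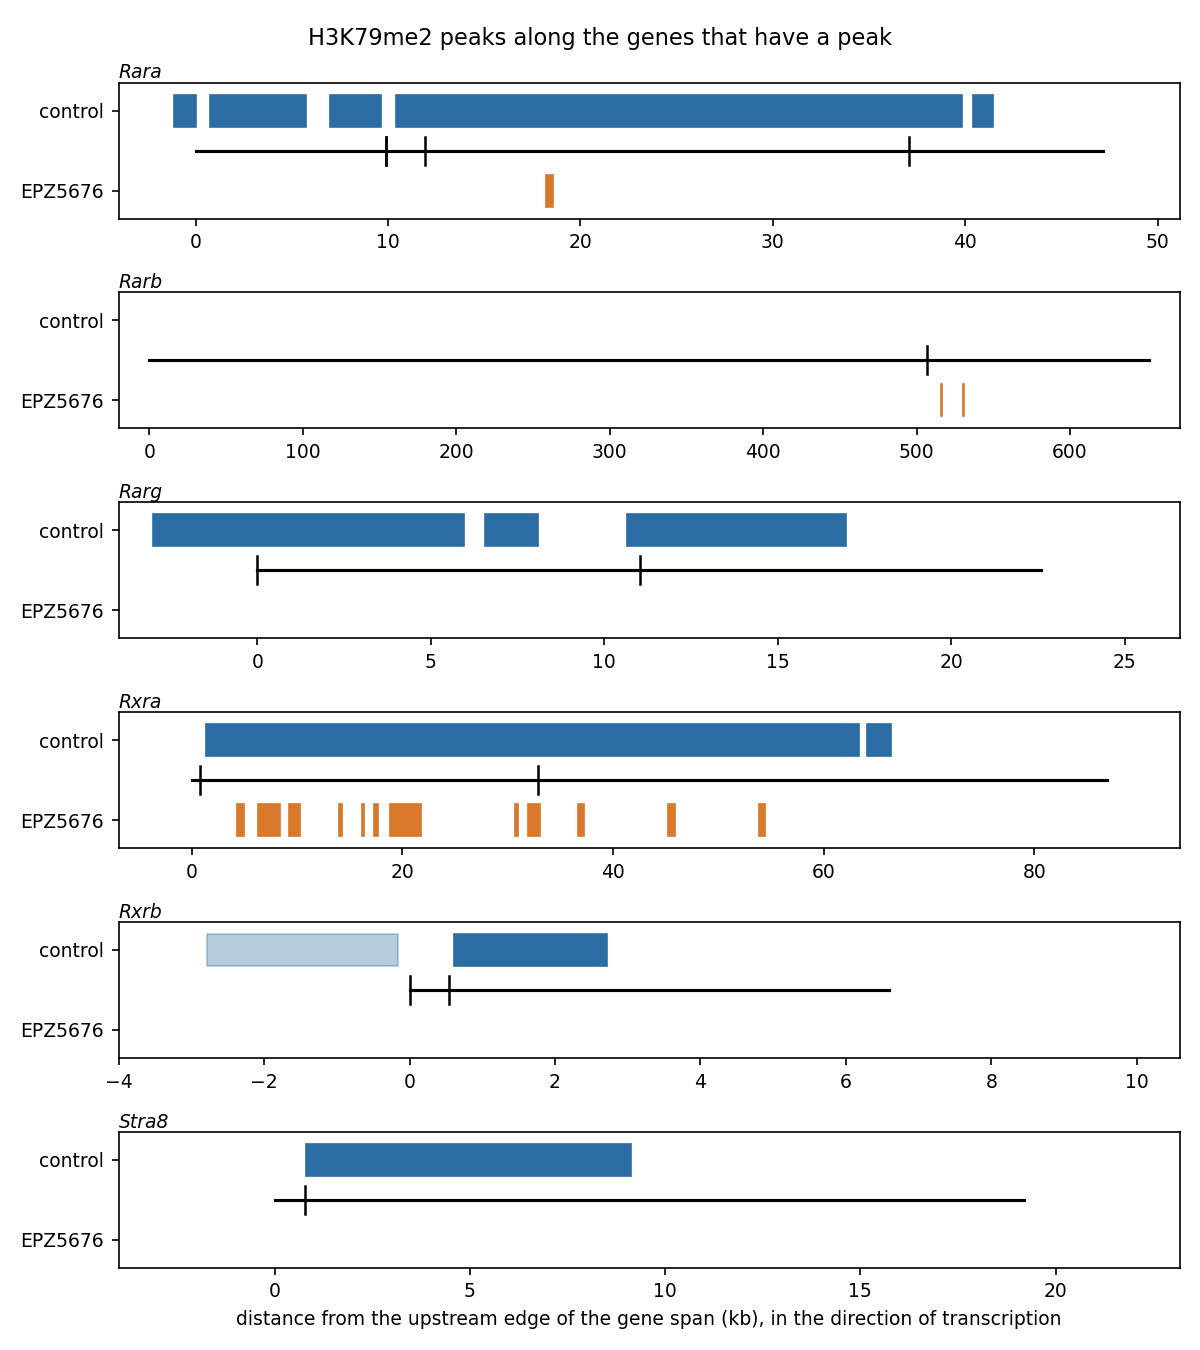
Control peaks (blue) and EPZ5676 peaks (orange) along the 6 genes with a peak, by distance from the upstream edge of the span in kb; the black line is the span, black ticks are listed starts, and pale boxes are peaks outside the span. Control peaks form wide domains in Rara, Rarg, Rxra and Stra8, the 12 EPZ5676 peaks of Rxra lie inside its domain, and Rarb has EPZ5676 peaks only.

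In all 5 marked genes the upstream 50% of the span held more of the control coverage than the rest, in Rara by a narrow margin. Single domains could lie further down. The widest of Rara ran from 10.4 to 39.8 kb of its 47143 bp span. The most enriched of Rarg ran from 10.7 to 17.0 kb of 22585 bp. The upstream 50% of the span held 54.7% of the control bases in Rara, 58.9% in Rarg, 65.4% in Rxra and all of them in Rxrb and Stra8. Of 9334 control-marked genes with a listed strand, 87.8% also had more control coverage there. The span after the last control peak made up 12.1% of Rara, 24.9% of Rarg, 23.5% of Rxra, 58.8% of Rxrb and 52.4% of Stra8.

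At the listed starts themselves, a control peak touched 7 of the 20 promoter windows, where 10.0% of all 32851 windows were touched. All 7 belong to the marked genes, which have 11 windows, and over all control-marked genes 20.1% of windows were touched. Of the 7, 5 lay wholly in a peak (6.49% of all windows did): both starts of Rarg, the internal start of Rxra and the 2 inner starts of Rara. Stra8 had 24 of 300 bases covered, and the first start of Rxrb had 91, which belong to a peak over the neighbouring gene Slc39a7. The outer starts of Rara fell in the gap between 2 control peaks, with the next peak 493 and 471 bp downstream. An EPZ5676 peak touched 1 of the 20 windows, the internal start of Rxra, which lay wholly in a peak of 1229 bp (27708328 to 27709556), while 0.107% of all windows were touched by one.

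The sequences at these starts differed in base composition. The upstream window of Rxra, shown above, has 55 CG dinucleotides and 83.0% G and C, and the internal window has 1 and 54.3%. Over all windows the medians are 7 and 52.7%. Windows of the control-marked genes had 1 to 55 CG dinucleotides with a median of 12, and those of the other 5 genes had 5 to 26 with a median of 9, so the ranges overlapped.

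A DR5 element was searched on both strands as a pair of hexamers with 5 bases of any kind between them. A hexamer was NGNTCA with A or G as the first base and G or T as the third. The element was found in 2 of the 20 windows and in 32 of all 32851, or 0.0974%. Rarb has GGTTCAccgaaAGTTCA from 53 to 37 bases before its start, and Cyp26a1 has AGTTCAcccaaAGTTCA on the opposite strand, from 32 to 16 bases before its start. Repeats with spacers of 2 bases or 1 base (DR2, DR1) were found in 0.268% and 0.222% of all windows and in none of the 20. Both windows with a DR5 lacked control and EPZ5676 peaks, which is the common case. Over all windows, 10.0% were touched by a control peak and 0.107% by an EPZ5676 peak. The match is of letters only.

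Marked and unmarked genes lay side by side along the chromosomes. Top2b, a topoisomerase gene that ends 51 bp from the span of Rarb, had 12488 bp under control peaks and 2031 bp under EPZ5676 peaks, whereas Rarb itself had none in the control. Upstream of Rxrb, Slc39a7, a zinc transporter gene 121 bp away, had a control peak of 2631 bp with a fold of 5.81, and Col11a2, a collagen gene 515 bp downstream, had none. Col5a1, also a collagen gene, 123061 bp downstream of Rxra, had 54548 bp of control and 4191 bp of EPZ5676 coverage. Exoc6b, an exocyst gene next to the unmarked Cyp26b1, had 114810 bp in the control. Cdc6, a replication licensing gene upstream of Rara, had 3051 bp, and Gjd3 downstream had 2106 bp, with no EPZ5676 peak over either.

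Other genes of the pathway were counted in the same way. Of 65 genes in 6 lists, 38 had a control peak and 14 an EPZ5676 peak, beside 52.7% and 12.3% of all protein-coding genes. With the control list held to the lowest −log10 p of the EPZ5676 list, 24 had a control peak, beside 44.7% of all genes. Of the 14 cofactors of the receptors, 13 were marked in the control and 8 after EPZ5676. Of all genes with spans of 50 to 200 kb, 70.9% had a control peak and 31.3% an EPZ5676 peak. The list had a median of 37481 bp under control peaks against 602 bp over all genes and a median span of 109525 bp against 17170 bp. Ncoa2, of a coactivator, led with 135326 bp under control peaks and 256 bp under EPZ5676 peaks. Crebbp, an acetyltransferase gene, had 83986 and 6640 bp, and Tbl1xr1, of the corepressor complex, 110112 and 3307 bp. Among the other cofactors with peaks in both lists were Nrip1 (4025 bp after EPZ5676), Ncoa3 (1866 bp), Ncoa1 (862 bp) and Ncor1 (298 bp). The shortest control coverage among the marked cofactors was at Ncoa1 (3463 bp) and Hdac3 (4486 bp), and Prame had no peak.

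The genes of retinoid handling had a median span of 10756 bp for transport and storage and 26669 bp for synthesis and reduction, and the shares over all genes are again 52.7% and 12.3%. Of 10 transport and storage genes, 3 had a control peak, namely Crabp2 (1469 bp) and Crabp1 (1293 bp), genes of cellular retinoic acid-binding proteins, and Stra6l (398 bp). None of the 10 had an EPZ5676 peak, and Rbp4, Lrat and Fabp5 were among those without any. Of 11 genes of retinoic acid synthesis and retinal reduction, 5 had a control peak. Dhrs3, which encodes a retinal reductase, led with 7264 bp and had 1413 bp after EPZ5676, and Rdh10, of a retinol dehydrogenase, had 3600 bp and no EPZ5676 peak. Rdh5 (569 bp) and Rdh11 (1086 bp) were shortest. Aldh1a2, a retinal dehydrogenase gene, had 2039 bp in the control, and Aldh1a1 had an EPZ5676 peak only (634 bp). Aldh1a3, Aldh8a1, Bco1 and Dhrs9 were among those without a peak.

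Among 11 other nuclear receptors that pair with RXR, 6 were marked in the control (52.7% of all genes) and 3 after EPZ5676 (12.3%), these 3 with EPZ5676 peaks only (2.14%). Ppard had the longest control coverage (54008 bp), followed by Nr4a1 (14678 bp), and Nr1h2 (2599 bp) and Nr4a2 (588 bp) the shortest. The EPZ5676 peaks were on Pparg (770 bp), Thrb (516 bp) and Nr1h4 (200 bp), while Ppara and Nr1h3 had no peak. The spans of these 3 marked genes are long, 129526 bp at Pparg, 380873 bp at Thrb and 79412 bp at Nr1h4. Of genes with spans over 200 kb, 17.1% had EPZ5676 peaks only, and of those with 50 to 200 kb, 3.92%. Of 18 genes that retinoic acid induces in germ cells or elsewhere, 11 were marked in the control, and Rai1 alone had EPZ5676 peaks (82563 and 2334 bp). Kit, the receptor of differentiating spermatogonia, had 23890 bp in the control. Hoxb1 had the shortest coverage (470 bp), and Meis1, Cdx1, Tgm2 and Nr2f1 were among the 7 without a peak. Meiosin, the partner of STRA8 at meiotic entry, is listed as Bhmg1 and had 4076 bp in the control.

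**Figure D4:**
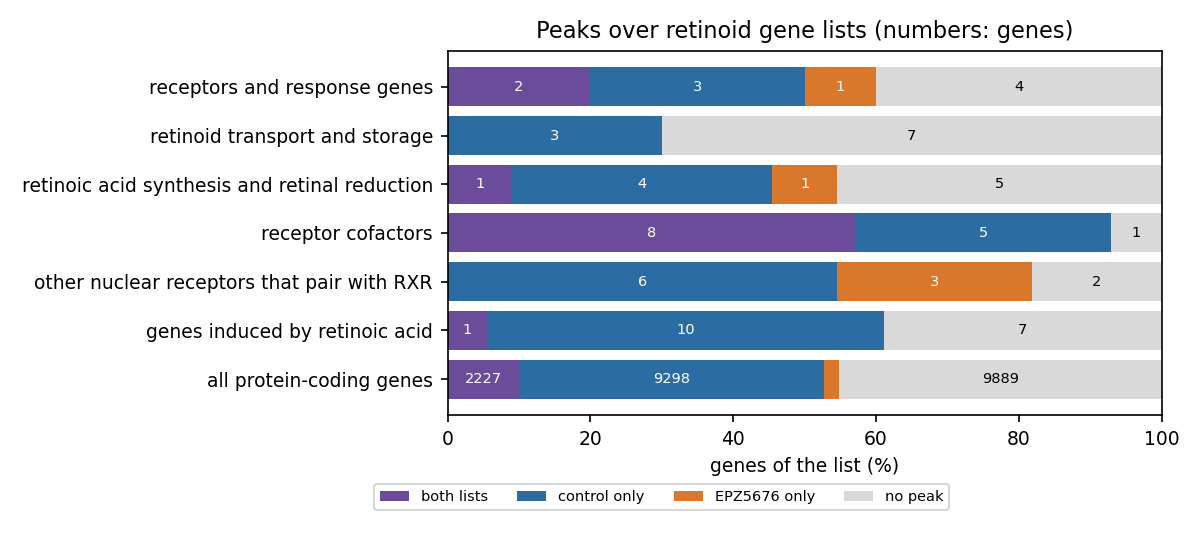
Percent of the genes of each list with peaks in both lists, in the control only, after EPZ5676 only or in neither, with the number of genes in each segment. Both lists mark 8 of the 14 receptor cofactors and 2 of the 10 receptors and response genes, against 2227 of 21883 genes in all. The cofactors have a median span of 109525 bp, and both lists mark 1081 of the 3955 genes with spans of 50 to 200 kb.

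By pattern, Rxra was closest to Nfix, a nuclear factor I gene. The measure was the distance over the percent of the span covered in each of the 2 conditions, among 1425 genes with spans of similar length. Nfix had 74.0% in the control and 10.7% after EPZ5676 (distance 1.79 percentage points), and Arid1a, a chromatin remodeller gene also among the 3 closest, had 74.3% and 5.92% (6.61). For Rara, the closest of 2075 genes were Trit1 (80.9% and 0.419%, distance 0.432), Rtn3 (80.6% and none, 0.805) and Urgcp (80.5% and none, 0.818).

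**Figure D5:**
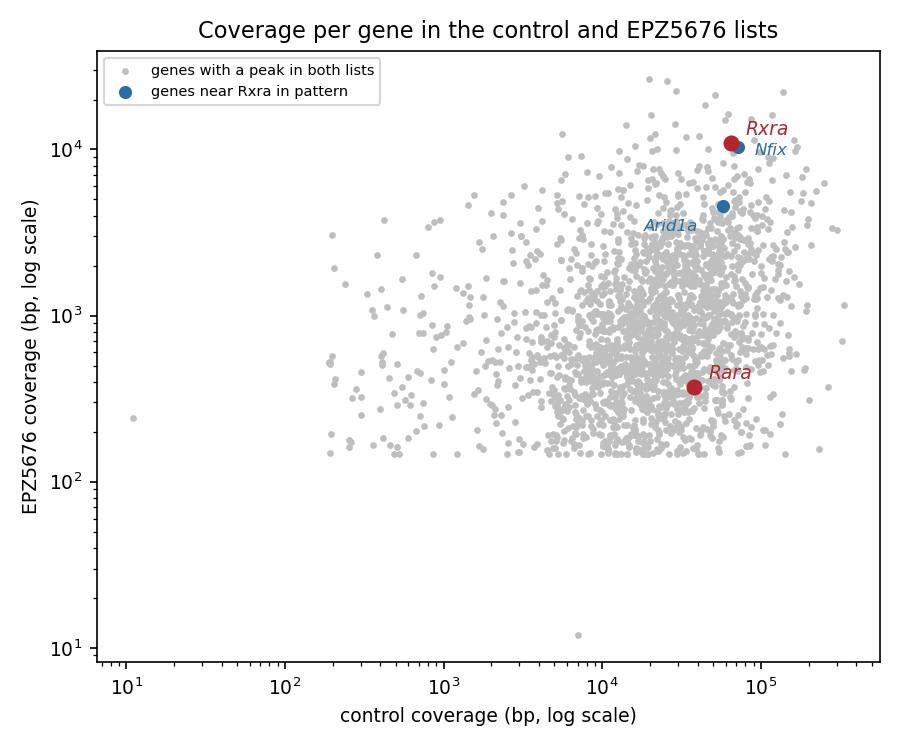
Bases covered per gene in the control (x axis) and after EPZ5676 (y axis), both on log scales, for the 2227 genes with a peak in both lists (grey). Rxra (64355 and 10880 bp) and Rara (38054 and 372 bp) are in red, and Nfix and Arid1a, among the genes closest in pattern to Rxra, are in blue.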

How the data were processed

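H3K79me2 ChIP-seq peak lists were used, 1 per condition, each filed under replicate 1 of its group; pooling of replicates and use of the inputs are not stated there. The submitters' processing notes name bcl2fastq 2.20.0.422, Trimmomatic, deepTools and mm10; the aligner and caller were not given in the sources used here. Both lists are header-less, with 9 columns. The deposited fold enrichment is a ratio of signal to background; the deposited −log10 p and −log10 q and the deposited score (the whole part of 10 times −log10 q in all but 4 control peaks) are the authors' own. They served to describe or filter peaks.

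With Python 3.11.15, pandas 2.3.3 and numpy 2.4.6, peaks were cut to RefSeq GRCm38.p6 gene spans and covered bases counted (matplotlib 3.10.9 for plots). The counting was checked on simulated intervals. Strand and starts came from the RefSeq promoter table. Overlap meant 1 shared bp or more, and no test was made, since each condition has 1 list.

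The genes and lists were chosen with earlier results of these data known. Named were all 10 genes, their neighbours, and from each list the 2 most and 2 least covered marked genes in the control, those with an EPZ5676 peak, and up to 4 without a peak; others, and the split of spans at 50%, were chosen after values were seen. Alternatives were a p floor, a q floor, at least 500 bp covered, wider or start-centred windows, joined peaks and stricter overlap. A few genes that this rule names are not reported here.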

Additional observations from a re-analysis of the deposited data

How the results depend on the processing

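The 5 control-marked genes were 5 under the p floor, the q floor, at least 500 bp covered, spans with 5000 bp added on both sides and windows of 2000 bp around listed starts; the count was 4 without the genes whose span overlaps another, which leaves out Rara. The count after EPZ5676, 3 of 10, was 2 with at least 500 bp covered, since Rara has 372 bp; over all genes that rule marks 7.77% after EPZ5676 and 50.6% in the control. With −log10 q of at least 2 it was 1, with 159 bp covered, 1 EPZ5676 peak and 1 overlapped control peak, while control coverage was 125059 bp and 3 genes of the other retinoid lists were marked after EPZ5676. That floor leaves 1.91% of all genes marked after EPZ5676 and 48.4% in the control, and the p floor leaves 44.7% in the control and 12.3% after EPZ5676. In the windows around listed starts, an alternative chosen after seeing the data, it was 1, namely Rxra. Where the control list was held to the lowest −log10 p of the EPZ5676 list, control coverage was 119079 bp in 7 peaks, and 24 genes of the other lists were marked in the control (24 also with at least 500 bp covered). Joining peaks closer than 1000 bp left 7 control domains, and 12 EPZ5676 domains in place of 15 peaks. With overlap of at least 50% of the control peak, 0 of the 12 control peaks were overlapped. Of the coverage values per gene, 32 were identical and 8 were lower under the p floor or the q floor, which leave fewer peaks by construction. Most of the identical values could not change. They were 0 bp before filtering, or were EPZ5676 values under the p floor, which cuts the control list alone. No paired analysis was possible because each condition has 1 peak list, and for the same reason no replicate could be left out. Read depth, unknown here, limits which weak peaks could be called in either list.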
